A study of Mus musculus with 8 samples.

Results

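Wild-type mouse embryos at the 2-cell stage were compared with wild-type blastocysts across all genes, in 4 of the 8 libraries of the series: 2 of 2-cell embryos and 2 of blastocysts. The oocytes came from superovulated females with 2 floxed Tet3 alleles (f/f), the genotype that the submitters name WT. Whether these females carried a Cre transgene is not stated. Oocytes were fertilized in vitro with CAST/EiJ sperm, so every embryo is a cross of an f/f female with a CAST/EiJ male, and zygotes with 2 pronuclei were grown in KSOM medium. Each 2-cell library was made from 10 pooled embryos frozen 30 h after fertilization, and each blastocyst library from 7 pooled embryos frozen at 96 h. The other 4 libraries hold the same 2 stages from Tet3-null oocytes, named CKO by the submitters, of females with a floxed and a null Tet3 allele and Zp3-Cre, a Cre transgene driven by the promoter of an oocyte gene. The labels do not tell whether replicate pools had different mothers or days of collection; the p-values cover the spread between these pools, which may be technical.

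A mouse oocyte stores messenger RNA and protein that carry the embryo through fertilization and the first cleavage, and most of the stored RNA is then degraded. The main wave of embryonic transcription starts at the 2-cell stage, when a short-lived group of genes that includes the Zscan4 family is transcribed. By the blastocyst stage the outer cells form the trophectoderm, an epithelium that pumps fluid into a cavity, and the inner cell mass separates into epiblast and primitive endoderm. The comparison describes which functions are cleared from the transcriptome between these stages, which are kept and which are switched on.

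Levels are FPKM, fragments counted relative to gene length and to all mapped fragments of the library, as the authors deposited them for 23234 genes. A gene was tested where at least 2 of the 4 libraries reached 1 FPKM, which held for 12790 genes. Differences are means of log2(FPKM + 1) in blastocysts minus those in 2-cell embryos, given with the standard error (SE) of limma, and a gene was called at a Benjamini-Hochberg adjusted p of at most 0.05. This scale understates the change of weakly expressed genes. The 2-cell libraries had 11660 and 11576 genes at 1 FPKM or more, and the blastocyst libraries had 10794 and 10607. Across genes, Pearson's r of log2(FPKM + 1) was 0.966 between the 2-cell libraries and 0.984 between the blastocyst libraries, against 0.546 to 0.576 between libraries of different stages. Genes are not independent replicates. FPKM is a relative level, and in pools of whole embryos fewer cells with a transcript and less RNA per cell cannot be told apart. The summed FPKM was 600495 and 625567 in the 2-cell libraries and 924556 and 944957 in the blastocyst libraries. Stage goes together with pool size and time of collection, which cannot be told apart from it here.

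The labelled stages were checked against marker genes. Zscan4c, a marker of the 2-cell stage, stood at 40.2 and 27.0 FPKM in the 2-cell libraries and was listed at 0 in both blastocyst libraries. Krt18, a keratin of the trophectoderm, stood at 11.9 and 9.13 FPKM in the 2-cell and 3138 and 2966 FPKM in the blastocyst libraries. Cdx2, the transcription factor that specifies trophectoderm, stood at 0.227 and 0.238 and 9.21 and 6.60 FPKM. Cdx2 was low at the 2-cell stage, and both genes were higher in each blastocyst library. Of the primitive endoderm markers, Gata6 rose and Pdgfra rose, Gata4 fell, and Sox17 was too low to be tested, at 0.137 and 0 and 0.671 and 1.30 FPKM. Markers of other cells that the pools could hold were mostly low. Of 14 genes of cumulus and granulosa cells, the cells that surround the oocyte, 2 passed the filter, and Fshr, Amh, Inhba and Ereg were listed at 0 in all 4 libraries. The summed level of that list was 42.9 and 34.6 FPKM in the 2-cell and 10.5 and 7.92 FPKM in the blastocyst libraries, mostly Tnfaip6, at 29.5 and 19.04 and 0.613 and 0.531 FPKM, and Amhr2. Of 14 sperm markers, 7 passed the filter, with sums of 34.3 and 34.2 FPKM against 7.46 and 7.76 FPKM. Of these 7, 4 were called lower (57.1%, against 41.1% of all genes tested) and 1 higher (14.3%, against 38.8%). In this list 1 gene stood at 5 FPKM or more in both 2-cell libraries and under 1 FPKM in both blastocyst libraries. Smcp and Crisp2 were listed at 0 throughout. Of 17 markers of blood and other somatic cells, 5 passed, with sums of 22.0 and 19.5 FPKM against 26.7 and 34.5 FPKM. Of these 5, 1 was called higher (20%, against 38.8% of all genes tested) and 1 lower (20%, against 41.1%). Hbb-b1, Alb and Col3a1 were listed at 0. The cumulus and sperm lists were lower in blastocysts, as the oocyte genes were; their part in the results below was not tested.

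**Figure D1:**
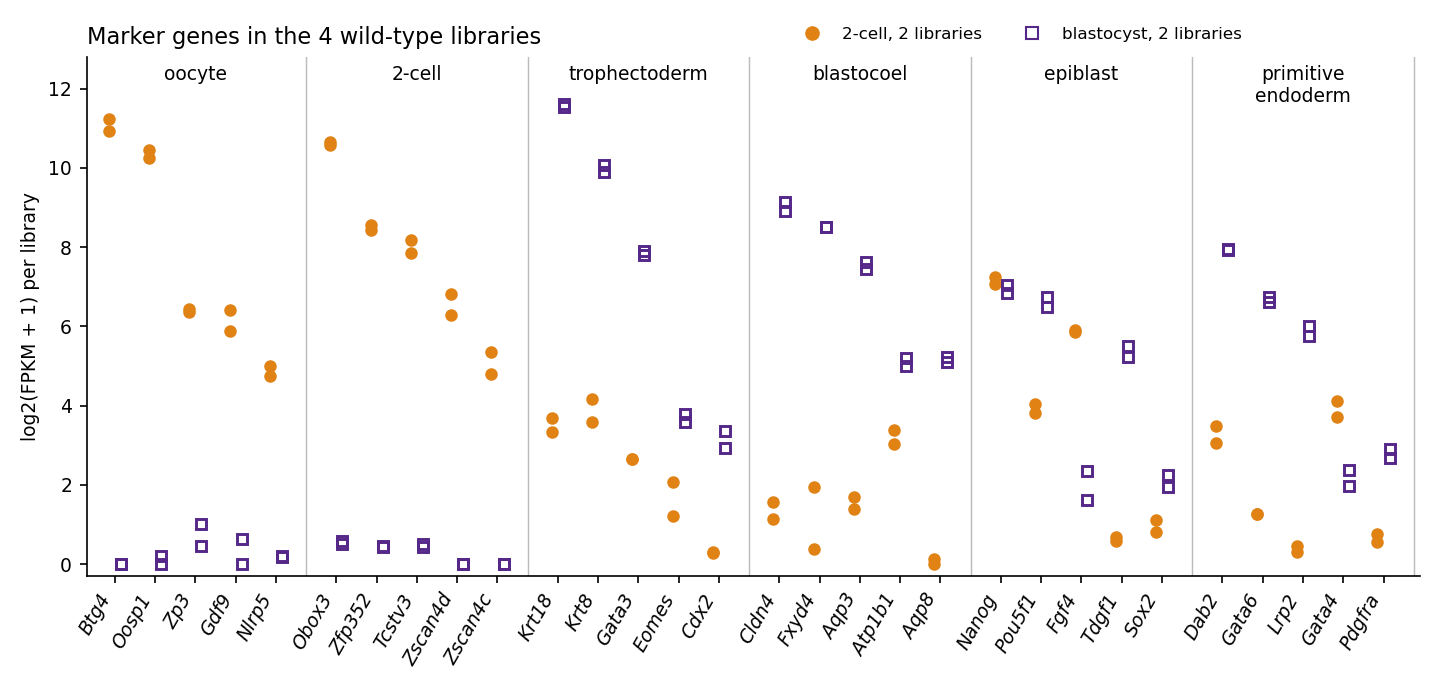
Levels of 5 marker genes per group in the 4 wild-type libraries; the vertical axis is log2(FPKM + 1), filled circles are the 2 libraries of 2-cell embryos and open squares the 2 libraries of blastocysts. The genes shown are a selection. Every oocyte and 2-cell marker shown lies higher in both 2-cell libraries, and every trophectoderm and blastocoel marker shown lies higher in both blastocyst libraries. In the whole list of pumps and water channels, 7 of 13 tested genes were higher and 4 lower. Among the epiblast markers the values of Nanog stay close while those of Fgf4 lie lower in blastocysts. Of the primitive endoderm markers shown, Gata4 lies lower in blastocysts and the others lie higher.

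Most of the transcriptome differed between the stages. Of 12790 genes tested 10223 were called (79.9%), 4965 of them higher in blastocysts (38.8%) and 5258 lower (41.1%), so a call alone singles out few genes, and the descriptions below rest on size and on level. At least 4-fold on the log2(FPKM + 1) scale, 1911 genes were higher (14.9%) and 1869 lower (14.6%). In addition, 3 classes were defined by level. Cleared genes, 667 or 5.22% of those tested, were called lower, with at least 5 FPKM in both 2-cell libraries and under 1 FPKM in both blastocyst libraries. Switched-on genes, 417 or 3.26%, were the mirror image. Kept genes, 2243 or 17.5%, had at least 1 FPKM in all 4 libraries. Their 95% interval of the difference also lay between a 2-fold decrease and a 2-fold increase on the log2(FPKM + 1) scale. A kept gene can still be called, with a small difference, so the counts of kept and of called genes in a list can overlap. Both libraries of one stage lay above both of the other for 5645 genes higher in blastocysts (44.1%) and 5901 lower (46.1%), and this held for each gene described below as called, rising or falling. The median difference of all genes tested was -0.04, with quartiles at -1.34 and 1.30. Scaled to equal summed FPKM, the median moved to -0.57 and the share of calls that were higher fell from 48.6% to 37.2%; median-of-ratios scaling gave 0.07 and 51.2%.

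Cleared genes held a large share of the 2-cell transcriptome. The near absence of this class in blastocysts follows from its limit of 1 FPKM, as does the low start of the switched-on class. Cleared genes made up 11.4% and 9.51% of the summed FPKM of the 2-cell libraries and 0.0172% and 0.0151% of that of the blastocyst libraries. Their median level was 13.2 FPKM at the 2-cell stage, the highest was 7556 FPKM, and 114 of them were listed at 0 in both blastocyst libraries. Switched-on genes started from 0.0224% in each 2-cell library and reached 1.23% and 1.25% in the blastocyst libraries, with a median level of 11.8 FPKM there. The switched-on class includes 19 small RNA genes and the cleared class 9. Small RNA genes held 8.02% and 7.22% of the summed FPKM of the 2-cell and 12.3% and 12.5% of that of the blastocyst libraries. Their part in these shares was not tested. The 1911 genes that were at least 4-fold higher, of which 1193 had at least 1 FPKM in both 2-cell libraries, went from 8.92% and 9.73% of the summed FPKM to 51.5% and 51.6%. These genes were chosen for their rise, so the direction of this gain was fixed. Kept genes held 15.4% and 16.1% at the 2-cell stage and 10.4% and 10.2% in blastocysts, where the summed FPKM was larger.

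**Figure D2:**
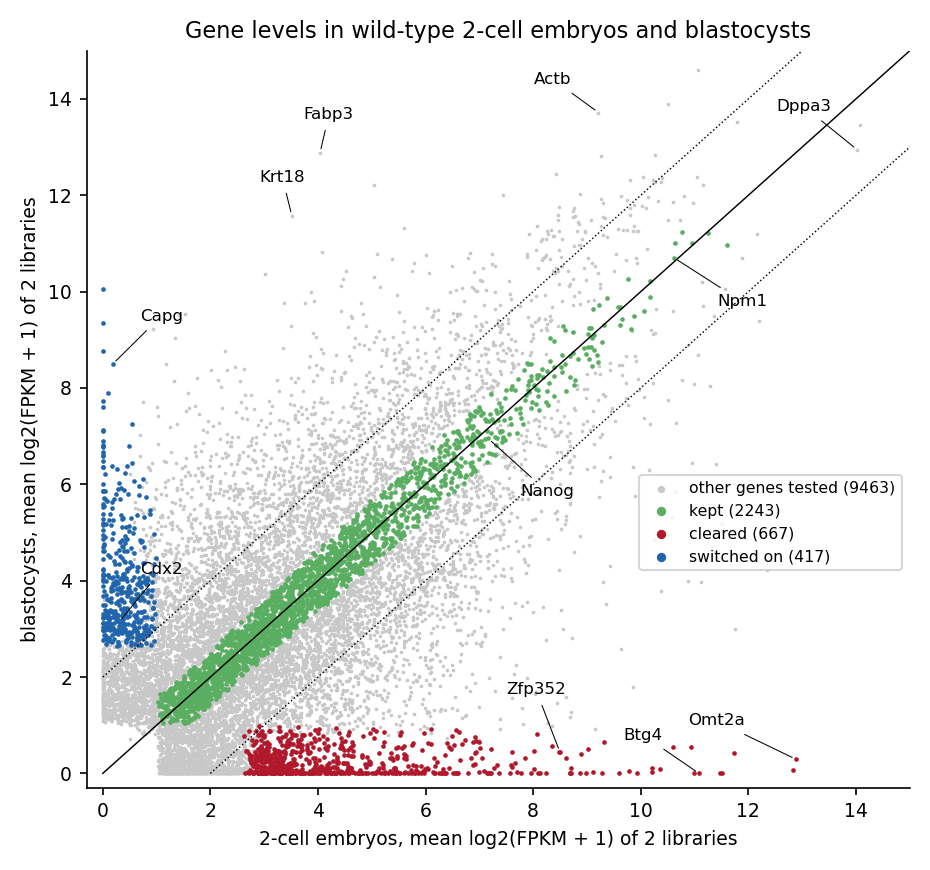
Mean log2(FPKM + 1) of each of 12790 genes in 2-cell embryos (horizontal axis) and blastocysts (vertical axis), 2 libraries each; red points are the 667 cleared, blue the 417 switched-on and green the 2243 kept genes, the solid line marks equal levels and the dotted lines a 4-fold difference. Cleared genes such as Omt2a and Btg4 lie along the horizontal axis up to the highest 2-cell levels, and switched-on genes reach less far along the vertical axis.

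**Figure D3:**
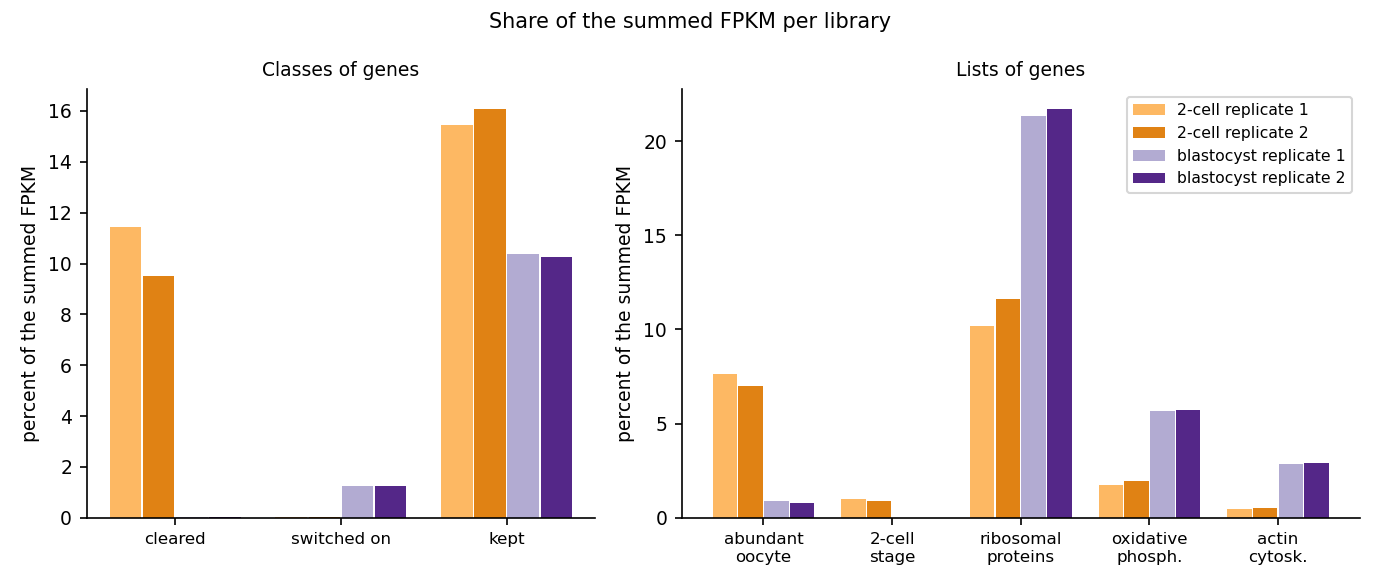
Percent of the summed FPKM of each wild-type library held by the 3 classes (left) and by 5 gene lists (right), with 1 bar per library. The cleared class shrinks and the switched-on class grows by definition. The lists of oocyte and 2-cell-stage genes shrink in blastocysts, while ribosomal proteins take 10.2% and 11.6% of the sum at the 2-cell stage and 21.4% and 21.7% in blastocysts.

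The most abundant cleared transcripts were those of the oocyte. Omt2a and Omt2b, genes named for their expression in maturing oocytes, stood at 7540.0 and 7571 FPKM and 7194 and 7383 FPKM in the 2-cell libraries and at 0.0842 and 0.386 and 0.107 and 0 FPKM in the blastocyst libraries. Their log2 differences were -12.59 ± 0.15 (SE, adjusted p = 3.65e-06) and -12.76 ± 0.11, with no overlap between stages. Oog3, of a family of oocyte genes with leucine-rich repeats, stood at 3071 and 2735 FPKM and was then listed at 0 in both blastocyst libraries. Of 20 tested genes in the list of abundant oocyte transcripts, 20 were lower, 17 were cleared, and the median difference was -8.66. The 5 Tcl1b genes, relatives of a cofactor of the kinase Akt, were among them, from Tcl1b1 at 1240.2 and 1135 FPKM to Tcl1b5 at 206 and 173 FPKM, all at 0.0355 FPKM or less in blastocysts. Bcl2l10, a member of the Bcl2 family of cell death regulators, fell from 745 and 537 to 0.473 and 0.688 FPKM. Dppa3, which protects the maternal genome from demethylation in the zygote, was the exception in level: it stood at 16289 and 16957 FPKM in 2-cell embryos and still at 8369 and 7462 FPKM in blastocysts, a log2 difference of -1.07 ± 0.14 (SE), whose call was lost without either blastocyst library (adjusted p = 0.0737 and 0.0999). Omt2a with Omt2b, and the Tcl1b, Oog and Obox genes, are families of close copies, so how reads were shared within a family is uncertain.

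Genes for the oocyte's own structures followed. Oosp1, an oocyte-secreted protein, stood at 1395 and 1223 FPKM in the 2-cell libraries and 0 and 0.149 FPKM in the blastocyst libraries. Gdf9 and Bmp15, the growth factors through which the oocyte signals to follicle cells, went from 84.0 and 58.2 and from 148 and 96.4 FPKM to 0.567 and 0 and 0.108 and 0.184 FPKM. Zp3, a protein of the zona pellucida that surrounds the egg, went from 80.9 and 85.4 to 0.364 and 1.03 FPKM and missed the cleared class only through the second of these values. For each of these genes both 2-cell libraries lay far above both blastocyst libraries. Of 12 genes in the list, 10 were lower and 6 cleared, Plat did not pass the test, and Cd9 rose. Cd9, a membrane protein needed for fusion of egg and sperm, is also used by many other cells; it went from 135 and 166 to 1825 and 1703 FPKM, a difference of 3.55 ± 0.14 (SE, adjusted p = 2.24e-05).

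Maternal-effect genes, whose products from the oocyte are needed by the embryo, divided. Of 8 tested Nlrp genes of the oocyte, 7 were lower and 6 cleared, with Nlrp9c at 85.7 and 75.6 and 0 and 0.00618 FPKM and Nlrp14 at 56.6 and 49.9 and 0.166 and 0.0869 FPKM. Nlrp4c was the member that rose, from 2.32 and 2.37 to 12.3 and 13.2 FPKM. In the subcortical maternal complex, a protein assembly beneath the membrane of the egg, 6 of 8 genes were lower. Zbed3 was the most abundant of them, at 510.2 and 439 FPKM against 0.164 and 0.520 FPKM, and Nlrp5 went from 30.9 and 26.1 to 0.161 and 0.143 FPKM. Padi6 and Tle6 stayed detectable in blastocysts, at 5.30 and 3.76 and 3.03 and 3.27 FPKM. Ooep, another subunit, was in the kept class, at 48.4 and 28.3 FPKM in the 2-cell and 32.4 and 39.3 FPKM in the blastocyst libraries, and the sign of its small difference, -0.05, changed with median-of-ratios scaling and without replicate 1 of either stage. The gene listed as 2410004A20Rik, whose current name is Khdc3, rose from 10.7 and 8.83 to 123 and 112 FPKM. Transcripts of this 1 complex thus included cleared, kept and rising genes.

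Most tested genes of maternal RNA storage and decay were lower in blastocysts. Btg4, the adaptor that brings the CCR4-NOT deadenylase to maternal transcripts, stood at 2414 and 1946 FPKM in the 2-cell libraries and was listed at 0 in both blastocyst libraries, a difference of -11.08 ± 0.15 (SE, adjusted p = 3.73e-06). The deadenylase subunits Cnot7 and Cnot6l went from 103 and 87.0 and 49.6 and 29.0 FPKM to 6.86 and 6.90 and 2.53 and 1.55 FPKM. Cnot1, the scaffold of the complex, was kept at 13.5 and 16.96 and 14.9 and 14.7 FPKM, and Cnot2 was also kept, though called lower. Of 28 tested genes of RNA storage and decay, 18 were lower (64.3%, against 41.1% of all genes tested) and 5 higher (17.9%, against 38.8%). In this list 7 were kept, and the median was -0.67. With equal summed FPKM 22 were lower, 2 higher and 4 kept. The 5 that rose did so by less than 4-fold.

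Oocyte ubiquitin ligases were mostly cleared, and meiotic regulators moved both ways. Wee2, the kinase that holds the egg's cyclin-dependent kinase inactive, stood at 224 and 191 FPKM in 2-cell embryos and 0.0196 and 0.00865 FPKM in blastocysts, and Gpr3, the receptor that maintains meiotic arrest, went from 19.5 and 26.0 to 0 and 0.0472 FPKM. Mos, the kinase of the arrest at the second meiotic division, was low at both stages and differed between its 2-cell libraries, 5.02 and 1.63 FPKM. Of 20 genes of meiotic arrest and exit, 11 were lower (55%, against 41.1% of all genes tested), 2 of them cleared. Another 7 were higher (35%, against 38.8%). Those that rose also serve mitosis, such as Plk1, a mitotic kinase, at 27.7 and 36.7 and 103 and 112 FPKM, and Ccnb2, a B-type cyclin, at 26.5 and 26.7 and 145 and 168 FPKM. In the oocyte ubiquitin list, 17 of 19 genes were lower, each of them by at least 4-fold, and 13 were cleared, with a median of -4.56. Rfpl4, a RING finger gene of the oocyte, fell from 401 and 434 to 0.0196 and 0.156 FPKM, and Siah2, a ubiquitin ligase found in many tissues, from 337 and 314 to 0.286 and 0.730 FPKM. Among the genes that fell were 12 Fbxw genes of the oocyte, from Fbxw24 at 206 and 184 FPKM to Fbxw13 at 4.05 and 4.11 FPKM in the 2-cell libraries. Ube2c, the ubiquitin-conjugating enzyme of mitotic exit, and Rnf114 were kept, Ube2c at 486 and 600.3 and 466 and 456 FPKM.

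Genes known from transcription at the 2-cell stage were also lower, and most of them were cleared. Of 29 tested genes in the 2-cell-stage list, 29 were lower by at least 4-fold and 25 were cleared, with a median of -5.44, and the list went from 1.005% and 0.877% of the summed FPKM to 0.0102% and 0.00761%. Zscan4d, of a family that acts on telomeres and chromatin, stood at 111 and 77.3 FPKM and was listed at 0 in both blastocyst libraries. Zfp352, a zinc finger gene, went from 377 and 344 to 0.369 and 0.346 FPKM, Tcstv3 from 289 and 229 to 0.433 and 0.339 FPKM, and the homeobox gene Obox3 from 1604 and 1515 to 0.504 and 0.429 FPKM. Obox6 fell from 783 and 810.0 to 7.49 and 3.21 FPKM and stayed above 1 FPKM, and Sp110, a nuclear body gene, went from 648 and 729 to 78.8 and 61.9 FPKM. Dux, the factor that activates this programme, was too low to be tested, at 0.967 and 2.40 FPKM in 2-cell embryos and 0.292 and 0.261 FPKM in blastocysts. The cleared class therefore includes genes known as oocyte transcripts and genes known from the embryo's own early transcription; the libraries do not tell the origin of a transcript.

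Among the lists, ribosomal proteins gained the largest share of the summed FPKM. Of 79 ribosomal protein genes, 77 were higher in blastocysts, 43 of them by at least 4-fold, with a median of 2.12 against -0.04 over all genes. With equal summed FPKM, 74 stayed higher and 19 by at least 4-fold. Rps18 had the largest difference, from 544 and 698 FPKM in the 2-cell to 6931 and 7404 FPKM in the blastocyst libraries, or 3.54 ± 0.16 (SE, adjusted p = 2.97e-05). Rpl41, the most abundant of the group, was lower, at 15804 and 19027 FPKM against 10741 and 11829.5 FPKM, and so was Rpl30; both calls were lost with median-of-ratios scaling and without either blastocyst library. Of 23 genes of tRNA synthetases and their scaffolds, 21 were higher (16 with equal summed FPKM), among them Aimp1, a scaffold of the synthetase complex, from 5.15 and 6.34 to 228 and 234 FPKM; Fars2, a mitochondrial enzyme among otherwise cytosolic ones, was lower. Of 47 translation factors, 32 rose (68.1%, against 38.8% of all genes tested) and 10 fell (21.3%, against 41.1%). With equal summed FPKM these counts were 25 and 13. Eef1g, a subunit of the elongation factor that delivers tRNA, went from 22.8 and 18.5 to 1065 and 1169 FPKM, while Eif1, which guides start codon choice, went from 1931 and 2148 down to 289 and 255 FPKM, -2.90 ± 0.12 (SE).

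Genes of energy metabolism were higher as well. Of 77 genes of oxidative phosphorylation, the respiratory chain and ATP synthase of mitochondria, 72 were higher, 55 by at least 4-fold (42 with equal summed FPKM), and the median was 2.79. Ndufa8, a subunit of complex I, went from 3.69 and 3.93 FPKM to 430.3 and 433 FPKM, and Atp5g2, of the ATP synthase ring, from 25.8 and 16.99 to 1164 and 1294 FPKM. Cox8a and Ndufab1 were lower, Cox8a at 1157 and 1317 FPKM against 612 and 524 FPKM. In fatty acid oxidation and lipid droplets 18 of 21 genes were higher. Fabp3, a carrier of fatty acids, had the largest rise there, from 13.5 and 17.6 FPKM to 7003 and 8119 FPKM, a difference of 8.84 ± 0.16 (SE, adjusted p = 6.63e-06), which made it one of the 10 most abundant transcripts of both blastocyst libraries. Acaa2 and Hadh, which carry out the last steps of beta-oxidation, rose from 2.56 and 0.770 and 3.15 and 1.14 to 263 and 301 and 247 and 229 FPKM. Cd36, a transporter that takes up fatty acids, was among the 2 that fell, from 4.98 and 2.89 to 0.00574 and 0.00506 FPKM.

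The enzymes of glucose use changed in composition. The lactate dehydrogenase subunits moved in opposite directions: Ldhb fell from 375 and 282 FPKM to 1.54 and 0.549 FPKM, -7.36 ± 0.28 (SE), and Ldha rose from 24.3 and 22.7 to 138 and 141 FPKM, 2.52 ± 0.11. In neither gene did the libraries of the 2 stages overlap. Of 28 tested genes of glycolysis and glucose transport, 21 were higher and 4 lower (15 and 6 with equal summed FPKM). Hk2, a hexokinase, stood at 5.33 and 4.80 and 104 and 97.6 FPKM and Slc2a3, a glucose transporter, at 6.58 and 5.08 and 61.7 and 55.3 FPKM. Pgm2, a gene of the phosphoglucomutase family, was switched on, from 0.626 and 0.711 to 69.8 and 67.4 FPKM. In pyruvate entry and the tricarboxylic acid cycle 19 of 28 rose (67.9%, against 38.8% of all genes tested) and 9 fell (32.1%, against 41.1%). Those that fell include the genes listed as Brp44 and Brp44l, now named Mpc2 and Mpc1, the carrier of pyruvate into mitochondria, and Pdk1 and Pdk3, kinases that switch off pyruvate dehydrogenase. Brp44l went from 577 and 713 to 229 and 223 FPKM and Pdk3 from 19.11 and 12.0 to 0.866 and 0.949 FPKM. Within the cycle itself Suclg1 rose from 5.74 and 3.49 to 325 and 371 FPKM.

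Protein turnover and the secretory route were also higher in blastocysts. Of 40 proteasome genes, 37 rose, 20 of them by at least 4-fold (11 with equal summed FPKM). Psma7, of the proteasome core, went from 64.2 and 67.0 to 1285 and 1399 FPKM, while Psme4, an alternative cap of the proteasome, fell from 68.2 and 60.9 to 12.2 and 11.6 FPKM. Of 42 genes of transport from the endoplasmic reticulum to the Golgi apparatus, 37 were higher, 8 kept and none called lower; with equal summed FPKM 30 were higher and 2 lower. Pdia6, a protein disulfide isomerase, rose the most there, from 10.9 and 11.9 to 336 and 256 FPKM. Of 35 lysosomal and endocytic genes, 25 rose (71.4%, against 38.8% of all genes tested) and 6 fell (17.1%, against 41.1%). The lysosomal proteases differed in direction: Ctsd rose from 3.001 and 4.32 to 252 and 267 FPKM, Ctsl fell from 442 and 521 to 163 and 115 FPKM, and Ctsb was kept, at 53.2 and 72.2 and 56.6 and 48.7 FPKM.

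**Figure D4:**
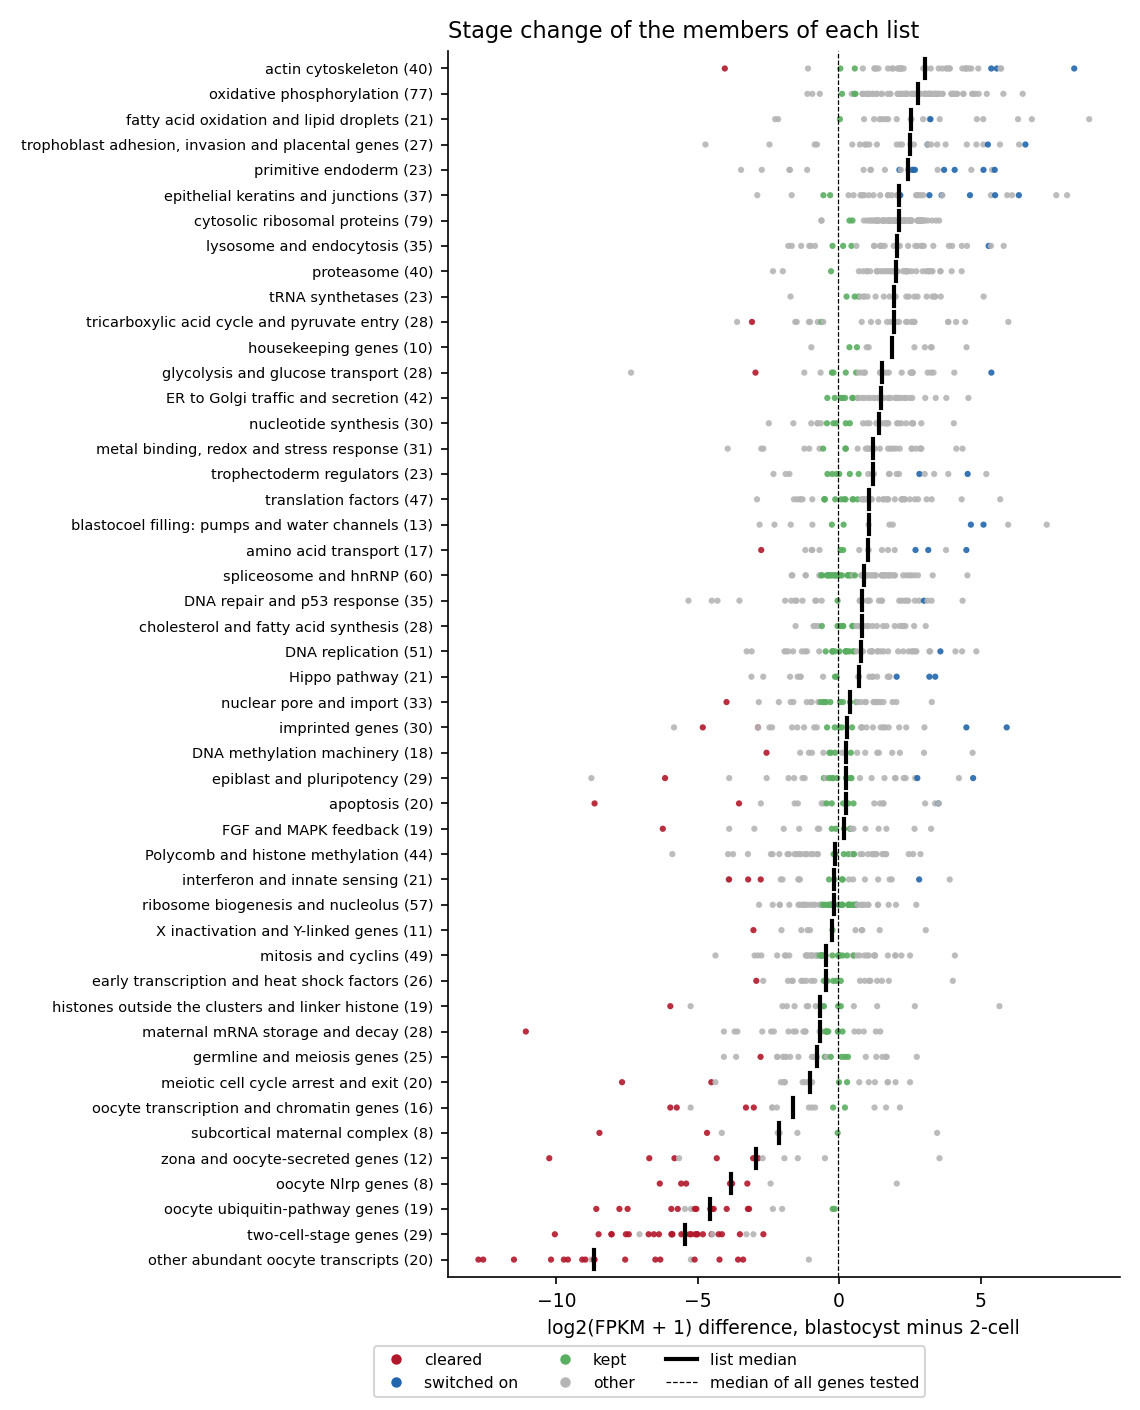
Difference of log2(FPKM + 1), blastocyst minus 2-cell, of each tested member of the lists with at least 8 tested members (number in brackets), sorted by median; red points are cleared, blue switched-on, green kept and grey other genes, black bars are list medians and the dashed line is the median of all genes tested. Actin, mitochondrial and ribosomal lists lie to the right and oocyte and 2-cell-stage lists to the left; with equal summed FPKM the medians of the epiblast, FGF, apoptosis, DNA methylation, imprinted and nuclear pore lists change sign.

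Genes of the actin cytoskeleton were higher in blastocysts. Of 40 genes of the actin cytoskeleton, 36 were higher, 28 by at least 4-fold, and the median of 3.03 was the highest of the lists with at least 8 tested members. Actb, cytoplasmic beta-actin, went from 585 and 599.6 FPKM to 12910.2 and 14058 FPKM, and Actg1, gamma-actin, from 44.6 and 49.9 to 2580.3 and 2533 FPKM. Capg, which caps actin filaments, was switched on from 0.0611 and 0.221 to 340.0 and 383 FPKM, a difference of 8.31 ± 0.15 (SE, adjusted p = 6.63e-06), and had the highest blastocyst level of the named switched-on genes. Vil1, the villin of microvilli, went the other way and was cleared, from 21.2 and 17.7 to 0.261 and 0.208 FPKM. Rhoa was kept at 88.4 and 96.4 and 97.9 and 92.4 FPKM, and Rac1, another small GTPase of actin control, fell from 64.2 and 55.7 to 28.2 and 26.4 FPKM.

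Keratins and junctions of the trophectoderm rose from low levels. Krt8 and Krt18, which pair into the first keratin filaments of the embryo, reached 1078 and 958 and 3138 and 2966 FPKM from 16.9 and 11.04 and 11.9 and 9.13 FPKM. The difference of Krt18 was 8.06 ± 0.15 (SE, adjusted p = 6.63e-06), a ratio of mean FPKM of 291. Cldn4, a claudin of tight junctions, went from 1.21 and 1.94 to 562 and 484 FPKM. The desmosomal genes Dsp and Dsg2 were switched on, Dsp from 0.319 and 0.373 to 17.03 and 14.3 FPKM, and so were Krt7 and the gap junction gene Gjb5; Krt7 and Gjb5 were listed at 0 in both 2-cell libraries and stood at 28.4 and 19.7 and 87.2 and 74.997 FPKM in the blastocyst libraries. Of 37 genes, 31 were higher, 6 of them switched on, and 3 lower (26, 5 and 4 with equal summed FPKM). Epcam, an adhesion molecule of epithelia, was already at 154 and 164 FPKM in 2-cell embryos, against 267 and 269.5 FPKM. Pard3, a scaffold of cell polarity, and Cd24a, a surface glycoprotein, were lower, Pard3 at 96.3 and 80.6 and 24.4 and 29.4 FPKM.

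Genes for filling the blastocyst cavity changed member by member. The water channel gene Aqp3 rose from 1.63 and 2.26 to 195 and 172 FPKM and Aqp8 was switched on from 0.0912 and 0 to 33.2 and 36.8 FPKM, while Aqp11 fell from 24.5 and 20.3 to 2.51 and 2.12 FPKM. Of the beta subunits of the sodium pump, Atp1b1 rose from 9.38 and 7.18 to 35.7 and 31.0 FPKM, and Atp1b2 and Atp1b3 fell. The pump modulator Fxyd4 reached 361 and 365 FPKM from 0.316 and 2.83 FPKM, the latter a wide spread. In all, 7 of 13 tested genes were higher (53.8%, against 38.8% of all genes tested) and 4 lower (30.8%, against 41.1%).

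Of the regulators of the trophectoderm, 15 of 23 rose (65.2%, against 38.8% of all genes tested) and 3 fell (13%, against 41.1%). In this list 6 were kept. With equal summed FPKM 14 rose, 6 fell and 2 were kept. Gata3, a transcription factor that acts beside Cdx2, went from 5.28 and 5.26 FPKM to 239.8 and 221 FPKM, and Elf3, an epithelial factor, from 31.5 and 28.2 to 453 and 439.8 FPKM. Eomes, a factor of trophoblast stem cells, went from 3.22 and 1.32 to 10.9 and 12.7 FPKM. Gata2, another GATA factor of trophoblast, was called higher but stayed within the kept class, at 31.7 and 28.8 and 50.3 and 48.3 FPKM. Its call was lost with equal summed FPKM. Tfap2c was kept and not called, at 19.5 and 24.8 and 32.0 and 26.0 FPKM. Dlx3, Hand1 and Pparg, which act in later placental cells, fell to under 1 FPKM from 3.87 and 4.29, 3.29 and 4.40 and 3.97 and 1.88 FPKM, and the call of Hand1 was lost without either 2-cell library. Among genes of trophoblast adhesion, invasion and placenta, 20 of 27 rose (74.1%, against 38.8%) and 4 fell (14.8%, against 41.1%). Fgfbp1, a carrier of fibroblast growth factors, was listed at 0 in 2-cell embryos and stood at 82.5 and 109.8 FPKM, and S100a11, a calcium-binding protein, went from 25.9 and 42.8 to 1662 and 1883 FPKM. Ascl2, an imprinted factor of the placenta, fell from 5.15 and 4.12 to 0 and 0.0329 FPKM, and Plac8 from 293 and 288 to 9.67 and 10.4 FPKM. The Hippo pathway, which tells outer from inner cells, had 12 of 21 genes higher (57.1%, against 38.8% of all genes tested) and 7 lower (33.3%, against 41.1%). With equal summed FPKM the pathway had 10 higher and 9 lower. Its nuclear partner Tead4 rose from 7.64 and 7.38 to 19.5 and 17.6 FPKM and the effector Yap1 fell from 87.1 and 85.3 to 14.2 and 11.1 FPKM.

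Pluripotency genes moved both ways. Of 29 tested genes of epiblast and pluripotency, 12 were higher (41.4%, against 38.8% of all genes tested) and 9 lower (31%, against 41.1%). In this list 9 genes were kept, and the median of 0.24 became -0.36 with equal summed FPKM and -0.07 with quantile scaling. Nanog, a core factor of the epiblast, was kept at 152 and 134 FPKM in 2-cell embryos and 114 and 132 FPKM in blastocysts, a difference of -0.21 with a 95% interval from -0.54 to 0.12. Pou5f1, its partner, rose from 13.0 and 15.5 to 107 and 88.3 FPKM, and Tdgf1, a co-receptor of Nodal, was switched on from 0.598 and 0.491 to 44.5 and 36.3 FPKM. Sox2 stood at 0.752 and 1.15 and 3.75 and 2.89 FPKM. Tcl1 had the largest fall of the list, from 4069.7 and 2941 to 5.40 and 8.91 FPKM, and is an oocyte transcript as well. Klf17, a factor of the early embryo, was cleared, from 129 and 111 to 0.657 and 0.716 FPKM, and Klf4 was lower. Fgf4, the growth factor that the epiblast sends to the primitive endoderm, fell from 56.9 and 58.9 to 4.11 and 2.09 FPKM, and its receptors Fgfr1 and Fgfr2 rose, Fgfr2 from 1.78 and 2.21 to 30.4 and 24.9 FPKM. Among 19 genes of FGF signalling and its feedback, 5 rose (26.3%, against 38.8% of all genes tested) and 7 fell (36.8%, against 41.1%). Of these 19 genes 5 were kept, and their median of 0.17 became -0.27 with equal summed FPKM. Spry4, a feedback inhibitor, was cleared from 137 and 99.7 to 0.447 and 0.687 FPKM, while its relative Spry2 was kept at 122 and 129 and 129 and 103 FPKM.

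Of 23 tested primitive endoderm genes, 18 rose (78.3%, against 38.8% of all genes tested), 8 of them switched on, and 5 fell (21.7%, against 41.1%). Gata6, the factor that sets this lineage apart, went from 1.42 and 1.398 to 107 and 96.4 FPKM, and Lrp2, an endocytic receptor, from 0.380 and 0.240 to 63.6 and 53.4 FPKM. Of the basement membrane genes in this list, Col4a1 was switched on, at 0.148 and 0.114 and 15.02 and 12.7 FPKM, and so was Lamc1, at 0.942 and 0.883 and 10.95 and 8.82 FPKM, while Lama1 rose from 0.243 and 0.169 to 4.55 and 4.37 FPKM and stayed under the 5 FPKM of that class. Gata4, which acts with Gata6 in endoderm, was lower in blastocysts, at 12.1 and 16.4 FPKM in the 2-cell and 4.23 and 2.91 FPKM in the blastocyst libraries, and so was Cited1, at 257 and 262 and 41.6 and 34.9 FPKM. Apart from these lists, the named switched-on genes with the highest levels were Cryab, a small heat shock protein, at 214 and 265 FPKM, Stard10, a lipid transfer protein, at 165 and 139 FPKM, Sycn and Apoa1, an apolipoprotein, which were both listed at 0 in the 2-cell libraries, and Enpep, a membrane peptidase, at 113 and 109 FPKM.

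The lists with the most kept genes were those of the nucleolus and of RNA splicing. Of 57 genes of ribosome biogenesis and the nucleolus, 27 were kept (17.5% of all genes were). Called higher were 17 (29.8%, against 38.8% of all genes tested) and lower 22 (38.6%, against 41.1%), with a median of -0.18. With equal summed FPKM 23 were kept, 6 higher and 34 lower. Npm1, an abundant nucleolar chaperone, stood at 1474 and 1671 FPKM and 1589 and 1744 FPKM. Ncl, nucleolin, rose from 60.8 and 64.8 to 116 and 106 FPKM (not called with equal summed FPKM, adjusted p = 0.137), and Polr1e, a subunit of RNA polymerase I, fell from 85.0 and 100.4 to 13.0 and 11.2 FPKM. Of 60 genes of the spliceosome and hnRNP proteins, 21 were kept. Called higher were 36 (60%, against 38.8%) and lower 9 (15%, against 41.1%). With equal summed FPKM 20 were kept, 28 higher and 21 lower. Snrpe, a core protein of spliceosomal particles, was kept at 1009 and 1324 and 911 and 974 FPKM, Snrpg fell from 3447 and 4107 to 1583 and 1728 FPKM, and Lsm3 rose from 41.6 and 42.1 to 403 and 445 FPKM. Other abundant kept genes were H2afz, a histone variant, at 1833 and 2157 and 2027 and 2114 FPKM, Map1lc3b, of autophagosomes, at 2860.4 and 3373 and 1958 and 2028 FPKM, and Calm2, a calmodulin, at 1016 and 1117 and 753 and 801 FPKM. Map1lc3b and Calm2 were also called lower. Which genes count as kept depended on the scaling and the pseudocount. With equal summed FPKM the class held 2036 genes, of which 1065 were in the class as defined here, and Npm1, H2afz and Erh had negative differences. With median-of-ratios scaling 2008 of 2240 were shared. With a pseudocount of 0.1 the class held 1613 genes, of which 1611 were shared.

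Cell cycle genes were found in all directions. Of 49 genes of mitosis and cyclins, 25 were lower (51%, against 41.1% of all genes tested) and 14 higher (28.6%, against 38.8%). In that list 15 were kept (17.5% of all genes tested were), and the median was -0.48. Of 51 genes of DNA replication 29 were higher (56.9%, against 38.8%) and 11 lower (21.6%, against 41.1%). There 13 were kept, with a median of 0.78. With equal summed FPKM the replication list had 20 higher and 18 lower, with a median of 0.23, and the mitosis list 9 higher and 31 lower. Aurkc, the Aurora kinase of germ cells, fell from 138 and 122 to 6.39 and 4.35 FPKM, while Aurka, its somatic relative, rose from 73.3 and 102 to 195 and 225 FPKM. Of the cyclins of S phase, Ccne1 and Ccne2 fell, Ccne1 from 93.8 and 86.5 to 21.0 and 17.03 FPKM. Cdk4, the kinase of the G1 phase, rose from 7.18 and 15.8 to 195 and 202 FPKM. In replication, Rfc2, of the clamp loader, rose from 1.78 and 3.01 to 93.1 and 97.8 FPKM and Lig1, which joins Okazaki fragments, from 1.76 and 1.14 to 44.3 and 53.05 FPKM. Pcna, the clamp itself, was kept at 156 and 161 and 176 and 198 FPKM, and Gmnn, geminin, which prevents re-replication, fell from 768 and 938 to 204 and 239 FPKM.

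In DNA repair and the p53 response 22 of 35 genes were higher (62.9%, against 38.8% of all genes tested) and 12 lower (34.3%, against 41.1%). With equal summed FPKM these counts were 16 and 13. Mdm4, an inhibitor of p53, had the largest fall, from 681 and 585 FPKM to 14.8 and 14.7 FPKM. Trp53 itself rose from 67.5 and 59.4 to 137 and 135 FPKM, and Bax, a cell death effector and p53 target, from 25.9 and 17.5 to 124 and 108 FPKM. The repair gene Xrcc1 went from 2.94 and 2.23 to 73.9 and 71.2 FPKM, Brca2 fell from 66.1 and 68.2 to 4.46 and 5.40 FPKM, and Tdg, the glycosylase that excises oxidized 5-methylcytosine, was switched on, from 0.0409 and 2.18e-05 to 6.93 and 7.39 FPKM. In apoptosis 8 of 20 genes rose (40%, against 38.8% of all genes tested) and 7 fell (35%, against 41.1%). The median of 0.23 became -0.31 with equal summed FPKM.

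The dioxygenases of 5-methylcytosine moved in opposite directions. Tet3, which acts in the zygote, was in the cleared class, at 10.8 and 7.54 FPKM in the 2-cell libraries and 0.957 and 0.459 FPKM in the blastocyst libraries, -2.57 ± 0.25 (SE, adjusted p = 3.49e-04). Tet2 rose from 1.17 and 1.06 to 60.9 and 49.1 FPKM, 4.72 ± 0.17 (SE, adjusted p = 1.91e-05), and Tet1 from 3.89 and 3.65 to 7.33 and 5.61 FPKM, a call that was lost with equal summed FPKM (adjusted p = 0.575) and without any 1 library. Among the methyltransferases, Dnmt3b rose from 4.88 and 3.80 to 46.0 and 37.4 FPKM and its cofactor Dnmt3l from 31.5 and 32.6 to 81.4 and 84.4 FPKM. Dnmt1, the maintenance enzyme, and Dnmt3a were kept, Dnmt1 at 7.70 and 7.45 and 11.2 and 9.68 FPKM with a difference of 0.41 that became -0.14 with equal summed FPKM. The whole list had 8 of 18 genes higher (44.4%, against 38.8% of all genes tested) and 4 lower (22.2%, against 41.1%). Its median of 0.26 became -0.17 with equal summed FPKM.

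Other chromatin genes moved both ways. Of 44 genes of Polycomb and histone methylation, 20 were lower (45.5%) and 17 higher (38.6%), near the shares of 41.1% and 38.8% over all genes tested, with a median of -0.15. With equal summed FPKM 24 were lower and 13 higher, with a median of -0.71. Bmi1 and Pcgf1, alternative subunits of Polycomb complex 1, fell from 240.4 and 230.4 and 435 and 498 to 3.39 and 2.57 and 32.0 and 27.4 FPKM. Ezh2, the methyltransferase of Polycomb complex 2, fell from 64.8 and 69.1 to 34.2 and 31.6 FPKM and Jarid2, its cofactor, rose from 15.8 and 14.9 to 97.8 and 81.3 FPKM. Among histones outside the clusters and their chaperones 12 of 19 fell (63.2%, against 41.1%) and 3 rose (15.8%, against 38.8%). Npm2, the oocyte chaperone that remodels sperm chromatin, was cleared from 78.7 and 98.1 to 0.367 and 0.466 FPKM, and the oocyte linker histone H1foo went from 86.2 and 52.97 to 0.287 and 1.51 FPKM. H3f3b, a gene of the replication-independent histone H3.3, fell from 1906 and 1880.3 to 444 and 499.8 FPKM, and H2afy, the gene of macroH2A, rose from 3.61 and 1.61 to 188 and 164 FPKM.

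Genes with parental or chromosomal dosage control moved both ways. Of 30 tested imprinted genes 15 were higher (50%, against 38.8% of all genes tested) and 11 lower (36.7%, against 41.1%). The median of 0.28 became -0.30 with equal summed FPKM. Phlda2, a maternally expressed gene that limits placental growth, fell from 530.5 and 807 to 14.1 and 7.66 FPKM and Th was cleared from 29.0 and 25.8 FPKM to 0 in both libraries. Cd81 and Slc38a4 were switched on, Cd81 from 0.374 and 0.374 to 86.1 and 78.9 FPKM. Xist, the non-coding RNA of X inactivation, rose from 0.919 and 1.06 to 16.6 and 14.6 FPKM, 3.06 ± 0.17 (SE), and Rlim, the ubiquitin ligase that activates it, fell from 54.6 and 51.5 to 12.78 and 11.5 FPKM. Strand is not marked in these libraries, so reads of Xist and of its antisense partner Tsix cannot be told apart. The labels do not tell the sex of the pooled embryos. For Xist and the Y-linked genes, stage and the mix of sexes in the pools therefore cannot be told apart. Of the Y-linked genes, Zfy2 was cleared, from 11.8 and 10.5 to 0.501 and 0.471 FPKM, and Eif2s3y rose from 21.6 and 25.6 to 43.8 and 39.6 FPKM, a call lost with equal summed FPKM (adjusted p = 0.222) and in the fit of all 8 libraries (adjusted p = 0.528).

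Genes of interferon response and innate sensing moved both ways, in shares near those of all genes: of 21, 9 fell (42.9%, against 41.1% of all genes tested) and 7 rose (33.3%, against 38.8%). They include Irf1, which was cleared from 19.3 and 22.3 to 0.532 and 0.399 FPKM, and Ifitm3, which fell from 94.4 and 126 to 5.20 and 7.62 FPKM, while Ifitm2 rose from 11.3 and 11.3 to 182 and 185 FPKM. In metal binding, redox and stress response 22 of 31 rose (71%, against 38.8%) and 7 fell (22.6%, against 41.1%). Mt1, a metallothionein, was abundant at both stages, at 3065 and 4055 and 11048 and 12369 FPKM. Prdx2, a peroxidase, fell from 1461 and 1438 to 216 and 213 FPKM and Txn1, thioredoxin, rose from 15.6 and 15.5 to 318 and 362 FPKM. Hspa1a, an inducible heat shock protein known from early embryonic transcription, was cleared from 8.61 and 5.54 to 0.0814 and 0 FPKM, and Hspa8, the constitutive form, rose from 327 and 360.1 to 5237 and 5945 FPKM. Of genes that serve as references in expression studies, 9 of 10 were higher in blastocysts, with differences from 0.36 for Rplp0, negative with equal summed FPKM (-0.24) and quantile scaling (-0.58), to 4.50 for Actb, and Tbp was lower.

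The embryos from Tet3-null oocytes, whose libraries had no part in the wild-type comparison, were read beside it. Tet3 stood at 3.28 and 4.41 FPKM in their 2-cell libraries, below both wild-type 2-cell libraries, and at 0.519 and 0.412 FPKM in their blastocyst libraries; a gene-level FPKM also counts whatever the deletion leaves. Among the 12790 genes, 4838 were called higher (37.8%) and 4140 lower (32.4%) in blastocysts than in 2-cell embryos of that genotype. Of the 667 cleared genes 664 changed in the same direction and 654 were called there, and of the 417 switched-on genes 411 and 405. Of the 1911 genes at least 4-fold higher, 1885 were called, and of the 1869 at least 4-fold lower, 1817. Btg4 went from 2442 and 4793 FPKM to 0 in both blastocyst libraries and Krt18 from 6.15 and 4.27 to 2170.4 and 1985 FPKM. Of the 2243 kept genes 1057 met the interval in those libraries, and 2018 had a difference of less than 2-fold there, on the log2(FPKM + 1) scale. A test of the difference between the stage changes, on all 8 libraries, called 13 genes (0.102%), 8 of them small RNA genes.

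Promoters of cleared genes held fewer CpG than those of kept genes. Promoters were taken from RefSeq (GRCm38.p6), as the 250 bases before and 50 bases after the first listed start of each gene, and matched by symbol for 8983 of the 12790 genes tested. CpG, a C followed by a G, is the site of DNA methylation in mammals, and promoters rich in it are common in genes that are active in most tissues. To show the contrast, the 150 bases before the start are printed 5′ to 3′ for some of the most abundant named genes of each class, with CG in capitals. Only genes with a matched promoter could be printed. Genes chosen beforehand as markers or references were taken first, so Rplp0 is printed though other kept genes were more abundant. In Oog3 the capitals mark TATAAA, the core of the TATA box, which starts 29 bases before the start. The cleared genes are Btg4 (chr9:51115851-51116000, + strand), Omt2a (chr9:78314049-78314198, - strand), Omt2b (chr9:78327880-78328029, + strand) and Oog3 (chr4:144162652-144162801, - strand).
Btg4: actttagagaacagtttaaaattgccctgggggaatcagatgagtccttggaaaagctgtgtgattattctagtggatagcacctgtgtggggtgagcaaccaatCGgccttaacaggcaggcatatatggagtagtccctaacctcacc
Omt2a: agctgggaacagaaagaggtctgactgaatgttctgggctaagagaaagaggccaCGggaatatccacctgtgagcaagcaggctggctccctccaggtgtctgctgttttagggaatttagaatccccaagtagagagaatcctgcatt
Omt2b: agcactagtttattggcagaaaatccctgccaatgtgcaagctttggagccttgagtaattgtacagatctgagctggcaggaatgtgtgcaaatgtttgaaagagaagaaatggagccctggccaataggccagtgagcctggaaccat
Oog3: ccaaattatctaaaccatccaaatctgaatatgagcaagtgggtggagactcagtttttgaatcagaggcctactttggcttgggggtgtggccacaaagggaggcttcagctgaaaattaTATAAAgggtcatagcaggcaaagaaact
The switched-on genes are Capg (chr6:72549497-72549646, + strand) and Stard10 (chr7:101316936-101317085, + strand).
Capg: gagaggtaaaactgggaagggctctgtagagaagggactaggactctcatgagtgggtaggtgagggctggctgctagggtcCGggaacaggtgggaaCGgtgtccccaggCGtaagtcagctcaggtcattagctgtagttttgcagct
Stard10: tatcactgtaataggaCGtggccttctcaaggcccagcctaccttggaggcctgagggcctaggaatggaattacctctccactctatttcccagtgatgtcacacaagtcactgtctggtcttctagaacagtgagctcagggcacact
The kept genes are Rplp0 (chr5:115559317-115559466, + strand) and Map1lc3b (chr8:121590288-121590437, + strand).
Rplp0: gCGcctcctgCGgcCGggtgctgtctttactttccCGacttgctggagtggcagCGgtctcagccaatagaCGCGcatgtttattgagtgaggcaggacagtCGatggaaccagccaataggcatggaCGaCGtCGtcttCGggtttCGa
Map1lc3b: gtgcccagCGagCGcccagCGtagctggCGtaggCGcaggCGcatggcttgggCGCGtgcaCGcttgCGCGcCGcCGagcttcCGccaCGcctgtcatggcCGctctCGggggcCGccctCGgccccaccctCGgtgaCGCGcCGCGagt
In these stretches Btg4 and Omt2a have 1 CpG each and Omt2b and Oog3 none, Capg has 3 and Stard10 1, and Rplp0 has 13 and Map1lc3b 24.

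The same order held over the classes. The median number of CpG in 300 bases was 8 for the 434 cleared genes with a promoter, 16 for 284 switched-on genes, 22 for 1615 kept genes and 20 for all genes tested. Promoters with 5 or fewer CpG made up 40.6% of the cleared, 19.7% of the switched-on and 7.12% of the kept class, against 13.2% of genes tested and 43.6% of the 27025 promoters in the table. Read from the promoter side, 1186 genes had 5 or fewer CpG, and 14.8% of them were cleared and 9.70% kept, with a median difference of -1.10. Of 6014 genes with 15 or more CpG, 2.56% were cleared and 20.6% kept, with a median of 0.11. The switched-on share varied less, from 4.72% to 2.61%. Genes with few CpG also had lower levels, with a median of 3.80 FPKM in 2-cell embryos against 7.82 FPKM for those with many, and the part of level in the class shares was not tested. TATAAA on the strand of the gene, between 45 and 11 bases before the start, was found in 5.99% of cleared, 1.41% of switched-on and 0.929% of kept genes, against 1.70% of genes tested and 2.45% of all promoters in the table. GGAATG, the core motif bound by TEAD factors, was found on either strand of 17.3% of switched-on promoters, 12.0% of cleared and 10.8% of kept ones, against 12.0% of genes tested and 14.6% of the table. AGATAA, the motif of the family of Gata3, was found on either strand of 8.45% of switched-on, 9.68% of cleared and 5.20% of kept promoters, against 6.75% and 11.4%. Matches are descriptions of letters, and tests of these shares were not made.

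**Figure D5:**
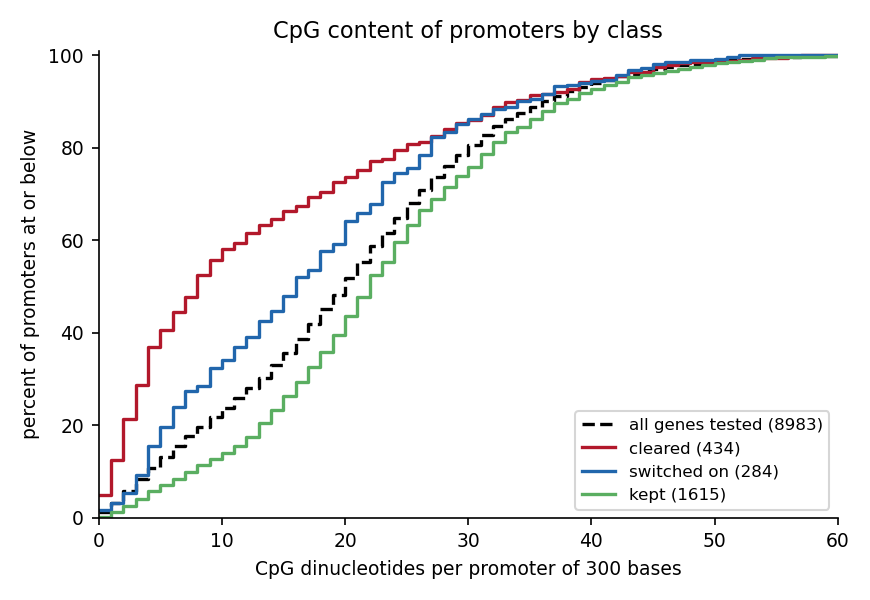
Cumulative percent of promoters (vertical axis) with at most a given number of CpG in 300 bases (horizontal axis), for the cleared (434), switched-on (284) and kept (1615) genes and all genes tested (8983). The curve of the cleared genes lies above the others up to about 25 CpG, with 40.6% at 5 or fewer, and that of the kept genes lies lowest, with 7.12%.

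A minority of the cleared genes lay next to each other. In the gene order of RefSeq, taking only genes that were tested, 67 of 576 placed cleared genes (11.6%) stood in 17 runs of 3 or more neighbours of the class. The longest run was 10 Fbxw genes on chromosome 9, followed by 7 genes on chromosome 12 that include Oog1 and Gm8300, the 5 Tcl1b genes elsewhere on chromosome 12 and 5 Zscan4 genes on chromosome 7. Obox, Nlrp, Tcstv and Tdpoz genes formed others. Of 384 placed switched-on genes 15 (3.91%) stood in 4 runs, the longest being 5 Magea genes on the X chromosome, and of 1997 kept genes 145 (7.26%) stood in 46 runs, none longer than 5. The runs of cleared genes are mostly families of similar copies, whose members are not independent and whose reads may have been divided among copies. The X chromosome held 5.90% of the cleared, 3.65% of the switched-on and 3.30% of the kept genes that could be placed, against 3.61% of all genes tested. The classes differ in size, and no share of runs to be had from size alone was computed.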

How the data were processed

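RNA of pooled mouse embryos was measured by RNA-seq in 8 libraries, 2 per genotype and stage. Per the labels' protocols, frozen embryos were lysed directly, cDNA was made and amplified with the SMARTer Ultra Low Input kit and sheared, and sequencing libraries followed, without strand information. This cDNA synthesis starts at poly(A) tails, so tail length and transcript number cannot be told apart. The authors deposited FPKM per gene; per the submitters' processing notes the tools were TopHat2 2.0.10, Bowtie2 2.1.0 and Cufflinks 2.2.0 with the mm9 build. Which annotation was used, and how reads of near-identical copies were divided, is not given in the sources used here, so values of families of close copies are uncertain. Read totals are not in the files. The commonest ratio of values under 0.15 FPKM put the depth of replicate 2 at 1.11 times that of replicate 1 for 2-cell embryos (85 of 865 genes at the peak) and 1.13 times for blastocysts (204 of 2000); between stages no ratio stood out.

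Genes with at least 1 FPKM in 2 or more of the 4 wild-type libraries were tested on log2(FPKM + 1), pseudocount 1, with limma 3.58.1 in R 4.3.3 (lmFit, eBayes with trend, two-sided, 2 residual and 3.30 prior degrees of freedom), and p-values were adjusted by Benjamini-Hochberg over all 12790 genes. Adjusted p-values are from this fit, except where an alternative is named and for the difference between genotypes, which was fitted in limma on all 8 libraries. The procedure was tested on simulated data. Alternatives were other pseudocounts, filters and scalings, class limits, a replicate block, all 8 libraries in the fit and each library left out. The 4-fold limit was added after the data were seen.

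The 51 gene lists (1566 entries, of which 10 were not matched and 20 were matched by a synonym) and the comparison were chosen with earlier results of these data known. Named by rule were the marker genes, the 15 most abundant named genes of the cleared and switched-on classes and 10 of the kept class, and per list the 3 called members with the largest change in the more frequent direction and 1 in the other. Further list members were named after their values were seen. Some genes that the rule names are not reported here. Gene symbols (22991 matched), neighbours, the X chromosome and promoters come from RefSeq on GRCm38.p6, another build than mm9, so no position was taken from the expression files. Python 3.11.15, pandas 2.3.3 and matplotlib 3.10.9 were used.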

Additional observations from a re-analysis of the deposited data

Results flagged for a closer look

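The stage change differed between genotypes in 13 of 12790 genes (limma on all 8 libraries, adjusted p of at most 0.05), of which 8 were small RNA genes; 1890 genes had an unadjusted p under 0.05. The other 5 are given here as the Tet3-null change minus the wild-type change on the log2(FPKM + 1) scale.

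Kcne3, a subunit of potassium channels, fell in wild type from 17.1 and 13.9 FPKM to 0 in both blastocyst libraries and stood at 1.97 and 1.02 and then 0.0362 and 0.101 FPKM in Tet3-null embryos, a difference of 2.84 (adjusted p = 0.0390). Calb2, the calcium-binding protein calretinin, stood at 2.88 and 1.97 and 1.96 and 2.62 FPKM in wild type and was listed at 0 in Tet3-null 2-cell embryos and at 6.21 and 5.46 FPKM in their blastocysts, a difference of 2.82 (adjusted p = 0.0267). In Fcgrt, the neonatal Fc receptor, the difference was 2.31 (adjusted p = 0.0409), with 21.0 and 24.4 and 0.811 and 0.646 FPKM in wild type and 5.28 and 4.40 and 1.22 and 1.01 FPKM in Tet3-null embryos. Ergic3, of the route from endoplasmic reticulum to Golgi, rose in both genotypes, from 49.9 and 49.9 to 168 and 168 FPKM and from 14.3 and 10.7 to 184 and 186 FPKM, with a difference of 2.06 (adjusted p = 0.0348). Tmsb15b1, a thymosin gene, fell from 49.1 and 53.8 to 2.17 and 1.94 FPKM in wild type and from 25.6 and 30.4 to 5.74 and 5.65 FPKM in Tet3-null embryos, a difference of 1.99 (adjusted p = 0.0432). The number of such genes rested on single libraries: it ranged from 7 without wild-type 2-cell replicate 1 to 1907 without Tet3-null 2-cell replicate 1, and was 38 without Tet3-null 2-cell replicate 2.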

How the results depend on the processing

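Leaving out each library in turn gave 3979 to 4614 genes called higher, 4284 to 4871 called lower, 732 to 790 cleared, 450 to 541 switched on, 1865 to 1942 at least 4-fold higher, 1809 to 1929 at least 4-fold lower and 1190 to 1913 kept, against 2243 kept with all 4; a lone library was assumed to vary like the other group. The kept count was 1190 without blastocyst replicate 1 and 1231 without replicate 2. The genotype difference gave 7 to 1907 genes, with 1907 without Tet3-null 2-cell replicate 1, 38 without Tet3-null 2-cell replicate 2 and 7 without wild-type 2-cell replicate 1. Genes at least 4-fold lower numbered 2921 with a pseudocount of 0.1 and 2939 with equal summed FPKM. Cleared genes numbered 1351 and 374 with present limits of 2 and 10 FPKM, and switched-on genes 828 and 222, or 228 with an absent limit of 0.5 FPKM. With an interval within 1.5-fold 609 genes were kept. With the replicate number as a block, 5002 genes were higher, 5231 lower, 667 cleared, 417 switched on, 2209 kept and 8 differed by genotype. Deviations of same-numbered libraries from their group means correlated at -0.045. With 2 libraries per stage this value cannot show whether same-numbered libraries shared mothers or a day of collection. Other counts stayed within 1.5 times.

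Small differences changed sign; values are log2 differences, of list medians where a list is named. With equal summed FPKM, the sign turned for the list of epiblast and pluripotency (-0.36), the list of FGF and MAPK feedback (-0.27), the list of apoptosis (-0.31), the list of DNA methylation machinery (-0.17), the list of imprinted genes (-0.30), the list of nuclear pore and import (-0.16), the list of blood and other somatic markers (-0.43), Dnmt1 (-0.14), Rplp0 (-0.24), Rps27 (-0.14), H2afz (-0.55), Npm1 (-0.52), Erh (-0.56), Ccdc72 (-0.12), Pcna (-0.37), Rhoa (-0.56) and Tfap2c (-0.21). With quantile scaling, the sign turned for the list of epiblast and pluripotency (-0.067), Rplp0 (-0.58), Rps27 (-0.45), H2afz (-0.84), Npm1 (-0.83), Erh (-0.91), Ccdc72 (-0.44), Calb2 (0.13), Pcna (-0.22) and Rhoa (-0.25). With a filter at 5 FPKM, the sign turned for the list of genes of X inactivation or the Y chromosome (0.80). With no filter, the sign turned for the list of blood and other somatic markers (-0.017). With median-of-ratios scaling, the sign turned for Ooep (0.077), Rps27l (0.094), Calb2 (0.046), Cnot1 (0.097) and Spry2 (0.014). Leaving out each library in turn gave both signs for the list of blood and other somatic markers (-0.79 to 0.30), Ooep (-0.43 to 0.32), Rps27l (-0.18 to 0.099), H2afz (-0.060 to 0.18), Npm1 (-0.0056 to 0.18), Calb2 (-0.24 to 0.14), Cnot1 (-0.18 to 0.13), Rhoa (-0.019 to 0.11) and Spry2 (-0.28 to 0.043). Of 309 named genes 267 kept direction and side of the threshold in every setting; in 3689 combinations of gene and setting 3559 did, 74 lost and 21 gained the call and 35 changed sign. The cause was not tested. Depth in reads is unknown, and 2 libraries per stage limit the spread that could be seen.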
